A study of Mus musculus with 6 samples.

Results

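Complement component genes were examined in tumors that formed from injected cells of the mouse mammary carcinoma line 4T1. The members were 9 genes chosen by symbol, namely C1qa, C1qb, C1qc, C1ra, C1s1, C2, C3, C4b and Cfb, out of 54146 gene rows. All 9 were matched to an Ensembl identifier in the tables. The 4T1 cells were either Mki67-/- (Ki-67-KO), lacking an intact gene for the proliferation antigen Ki-67, or wild type, and each group had 3 libraries. Nude mice, which lack a thymus and hence most T cells but keep macrophages and natural killer cells, received the cells in the mammary fat pad, and whole tumors were taken 3 weeks later. The knockout concerns the injected cells, so the host cells in both groups carry Mki67. The labels do not give the number of knockout clones, the age of the mice, or whether each library is 1 tumor, so differences between clones and between genotypes cannot be told apart here, and p-values measure only the spread between these libraries.

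Complement is a cascade of serum proteins that marks cells and immune complexes for clearance. In the classical pathway C1q, built from the products of C1qa, C1qb and C1qc, binds its target and activates the serine proteases C1r and C1s, which cleave C4 and C2 to form the enzyme that cleaves C3. Factor B, the product of Cfb, takes the place of C2 in the alternative pathway. The liver makes most circulating complement, but C1q comes mainly from macrophages and dendritic cells, while C3, C4, C1r, C1s and factor B are also made locally by epithelial cells and fibroblasts.

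The C1q genes and the other members that were tested moved in opposite directions. C1qa, C1qb and C1qc were lower in Ki-67-KO tumors, by 2.51-fold to 2.99-fold. C3, C1s1, C4b, C1ra and C2 were higher, C3 by 9.89-fold and the others by 1.89-fold to 4.15-fold. Of the 9 members, 8 passed the filter on low counts, and of these 5 were higher and 3 lower at an adjusted p under 0.05 (edgeR quasi-likelihood test, Benjamini-Hochberg over 19900 genes). Of all genes tested, 36.0% passed by the same rule, made up of 17.6% higher and 18.4% lower, and the median log2 fold change of all tested genes was 0.05. The count of 5 includes C2, whose counts were partial, as described with that gene. With knockout replicate 2 left out, 5 members were still higher and 3 lower, and when wild-type replicate 1 or 2 was left out, 3 were higher.

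Read pairs counted for genes totalled 22081970 to 30772729 in Ki-67-KO libraries and 37065778 to 38399826 in wild-type libraries. The unmapped share of pairs was 30.8%, 54.6% and 52.7% in Ki-67-KO replicates 1, 2 and 3 and 31.2% to 33.9% in wild-type libraries. Mki67 was at 98.7 to 139 CPM (counts scaled to a common library size with TMM factors) in Ki-67-KO libraries and at 325 to 395 CPM in wild-type libraries, the direction its label gives. The epithelial keratin gene Krt8 averaged 1640 CPM ± 184 in Ki-67-KO and 1449 CPM ± 49.6 in wild-type tumors (SD, n = 3 each), so this marker of carcinoma cells was present in both groups. Ki-67-KO replicate 2 stood apart in several marker lists, with summed adipocyte markers of 554 CPM against 216 and 277 CPM in the other Ki-67-KO libraries. Its summed keratinocyte markers were at 1626 CPM, against 971 and 732 CPM in the other Ki-67-KO libraries. Its summed fibroblast markers were at 13322 CPM, against 7807 and 9272 CPM.

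The C1q genes lie next to each other on the minus strand of chromosome 4 (GRCm38), with C1qb at 136880129 to 136886187, C1qc at 136889804 to 136893065 and C1qa at 136895917 to 136898803. No exon of the 3 genes overlapped another gene, and no 50-base stretch of their transcripts occurred in another gene's transcripts, so their counts are not shared. C1qa, the A chain (ENSMUSG00000036887), was at 210, 220 and 192 CPM in Ki-67-KO replicates 1 to 3 and at 640, 570 and 650 CPM in wild-type replicates 1 to 3. Every Ki-67-KO library lay below every wild-type library, and its level averaged 207 CPM ± 14.2 in Ki-67-KO and 620 CPM ± 43.4 in wild-type tumors (SD, n = 3 each). The log2 fold change was -1.58 (SE 0.10, edgeR adjusted p = 1.42e-05).

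C1qb, the B chain (ENSMUSG00000036905), was at 107, 169 and 152 CPM in Ki-67-KO libraries and at 384, 315 and 375 CPM in wild-type libraries. The groups did not overlap, and Ki-67-KO replicate 1 was the lowest (log2 fold change -1.33, SE 0.17, edgeR adjusted p = 0.000584). C1qc, the C chain (ENSMUSG00000036896), was at 112, 158 and 135 CPM in Ki-67-KO libraries and at 400, 370 and 399 CPM in wild-type libraries. Again the groups did not overlap (log2 fold change -1.53, SE 0.13, edgeR adjusted p = 6.29e-05). Among all tested genes, the Ki-67-KO libraries lay entirely below the wild-type libraries for 26.0% and entirely above them for 24.5%. The proportions of the chains to each other overlapped between the groups. The ratio of C1qc to C1qa counts was 0.651 ± 0.102 in Ki-67-KO and 0.629 ± 0.017 in wild-type tumors (SD, n = 3 each), and that of C1qb to C1qa was 0.690 ± 0.155 in Ki-67-KO and 0.576 ± 0.024 in wild-type tumors, with Ki-67-KO replicate 1 at 0.511 and the other Ki-67-KO libraries at 0.768 and 0.790. These ratios were given no test.

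**Figure D1:**
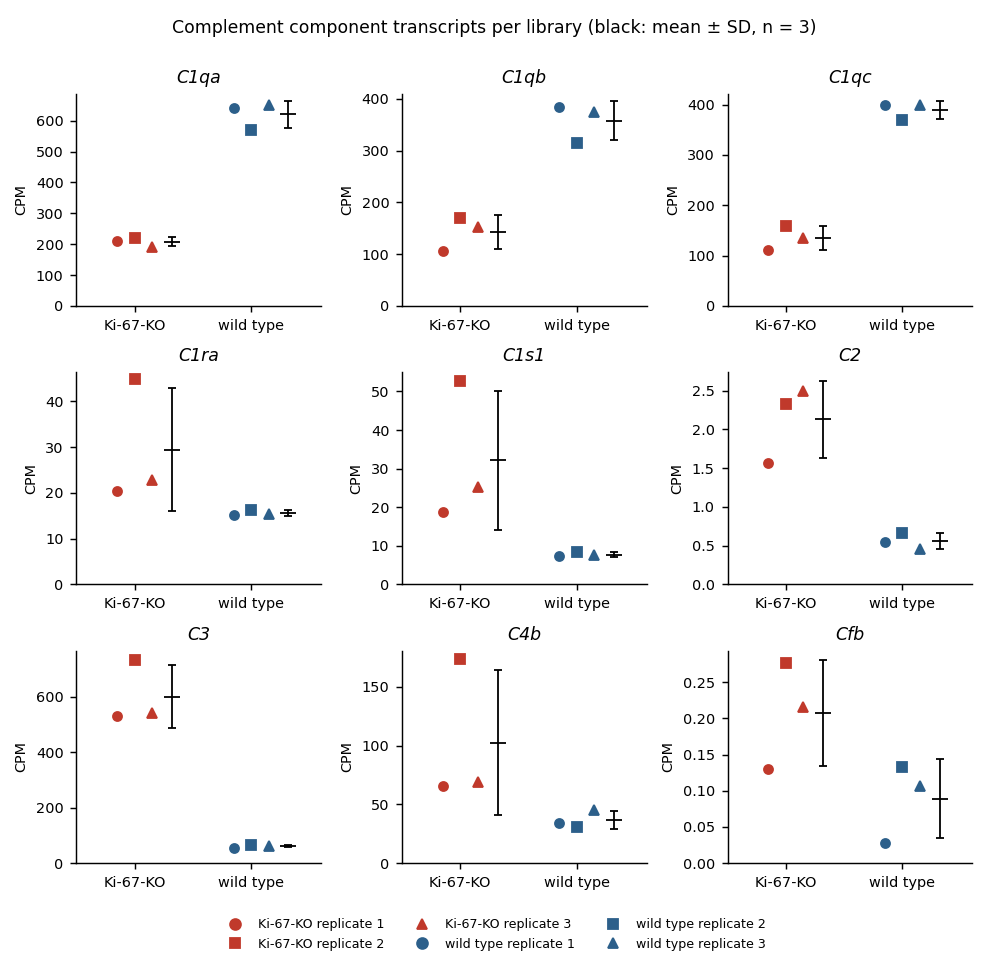
Levels of the 9 complement component genes in CPM on a linear axis, with 1 point per library, Ki-67-KO left and wild type right, and the mean ± SD in black (n = 3). The 3 C1q genes are lower in every Ki-67-KO library, C3 is at 528 to 731 CPM against 55.8 to 64.9 CPM, and Ki-67-KO replicate 2 is the highest library for C1ra, C1s1 and C4b. C2 and Cfb rest on at most 59 and 7 counts per library.

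C3, the central component that all activation routes cleave (ENSMUSG00000024164, chromosome 17, 57203970 to 57228136, minus strand), had the largest change among the members. It was at 528, 731 and 541 CPM in Ki-67-KO libraries and at 55.8, 64.9 and 61.5 CPM in wild-type libraries. The lowest Ki-67-KO library was far above the highest wild-type library, with averages of 600.3 CPM ± 113 in Ki-67-KO and 60.7 CPM ± 4.61 in wild-type tumors (SD, n = 3 each). The log2 fold change was 3.31 (SE 0.15, edgeR adjusted p = 3.17e-06) and stayed between 3.06 and 3.48 under all alternatives run.

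C1s1 encodes the protease C1s (ENSMUSG00000038521, chromosome 6, 124530345 to 124542359, minus strand). It was at 18.7, 52.7 and 25.3 CPM in Ki-67-KO libraries and at 7.29, 8.34 and 7.64 CPM in wild-type libraries, without overlap between the groups (log2 fold change 2.05, SE 0.34, edgeR adjusted p = 0.00237). C1ra encodes the protease C1r (ENSMUSG00000055172, chromosome 6, 124512405 to 124523443, plus strand). It was at 20.5, 44.9 and 22.9 CPM in Ki-67-KO libraries and at 15.1, 16.3 and 15.3 CPM in wild-type libraries. The groups did not overlap, and the difference was 1.89-fold (log2 fold change 0.92, SE 0.27, edgeR adjusted p = 0.0278). C4b, the gene of complement C4 (ENSMUSG00000073418, chromosome 17, 34728380 to 34743882, minus strand), was at 65.4, 173 and 68.6 CPM in Ki-67-KO libraries and at 33.8, 31.1 and 44.9 CPM in wild-type libraries. Here too the groups did not overlap (log2 fold change 1.49, SE 0.36, edgeR adjusted p = 0.0128).

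Ki-67-KO replicate 2 was the highest library for C1s1, C1ra, C4b and C3. Without it, the log2 fold change was 1.45 for C1s1, 0.43 for C1ra, 0.83 for C4b and 3.09 for C3, each still past the threshold (edgeR adjusted p = 8.45e-05, 0.0132, 0.0021 and 1.05e-07). The part of that library's adipocyte, keratinocyte and fibroblast markers in these values was not tested beyond leaving it out. The calls of C1ra and C4b were lost with the share of unmapped pairs as a covariate (edgeR adjusted p = 0.284 and 0.127). Leaving out any 1 wild-type library ended the call of C1ra (edgeR adjusted p = 0.0815 to 0.107), and leaving out wild-type replicate 1 or 2 ended that of C4b (edgeR adjusted p = 0.0588 and 0.0547).

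The counts of C1ra, C1s1 and C4b may be incomplete, since pairs that map to several places are not assigned to a gene. Of the 50-base stretches in C1ra transcripts, 48.0% also occurred in transcripts of its neighbouring copy C1rb. For C1s1, 21.8% occurred in C1s2, and for C4b 34.6% occurred in C4a. The length of 50 bases was set for this check, and the share of pairs lost was not measured. The copies had far fewer counts, and C1s2 and C1rb were higher as well. C1s2 was at 2.70, 7.03 and 5.25 CPM in Ki-67-KO libraries and at 0.911, 1.09 and 0.882 CPM in wild-type libraries (log2 fold change 2.37, edgeR adjusted p = 0.00129). C1rb averaged 1.30 CPM ± 0.316 in Ki-67-KO and 0.628 CPM ± 0.111 in wild-type tumors (SD, n = 3 each; log2 fold change 1.04, edgeR adjusted p = 0.0347), and C4a, at 4.20 CPM ± 1.83 in Ki-67-KO and 2.46 CPM ± 0.568 in wild-type tumors, did not pass (log2 fold change 0.77, edgeR adjusted p = 0.105). The call of C1rb was lost when any library other than Ki-67-KO replicate 1 was left out (edgeR adjusted p = 0.0667 to 0.140). Exons of the antisense gene Gm16567 covered 18.4% of the exon bases of C1s1, and pairs in that stretch count for neither gene.

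C2 and Cfb could hardly be measured. The genes lie side by side on the minus strand of chromosome 17, C2 (ENSMUSG00000024371) at 34862604 to 34898265 and Cfb (ENSMUSG00000090231) at 34856374 to 34862518, and the annotated gene Gm20547 spans both. Exons of Gm20547 covered 79.5% of the exon bases of Cfb and 42.8% of those of C2, and pairs on shared exon bases are ambiguous and count for no gene. Gm20547 itself had 0 counts in all 6 libraries. Cfb had 4, 7 and 5 counts in Ki-67-KO libraries and 1, 5 and 4 counts in wild-type libraries, close to the limit of 3 that a count of 0 allows. It was not tested, and these numbers do not give the level of factor B transcripts.

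C2 had 48, 59 and 58 counts in Ki-67-KO libraries and 20, 25 and 17 counts in wild-type libraries. The log2 fold change was 1.92 (SE 0.30, edgeR adjusted p = 0.00185) over the exon parts that no other gene covers. In the first stranded column C2 had 95, 87 and 80 counts in Ki-67-KO libraries and 78, 102 and 91 counts in wild-type libraries, and the log2 fold change was 0.52 (edgeR adjusted p = 0.0408). Zbtb12, on the opposite strand, lies within the span of C2, and in unstranded libraries the stranded columns can assign its pairs to C2. The direction of C2 is therefore given for these counts only.

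Upstream sequences from the RefSeq promoter table (GRCm38.p6) were matched for 5 of the 9 members, C1qb, C1qc, C1ra, C1s1 and C3. The 250 bases before the start of 1 lower gene and of 2 higher genes are shown, to set a C1q promoter beside those of the most changed component and of a classical pathway protease. Capitals mark matches, on either strand, to 5 short patterns: an NF-kappaB core (GGG, any 5 bases, CC), an interferon response core (GAAA, any 2 bases, GAAA), a STAT core TTCNNNGAA, a C/EBP core TTGNNNCAA and a PU.1 core GAGGAAGT.
C1qb, chr4:136886201-136886450, minus strand: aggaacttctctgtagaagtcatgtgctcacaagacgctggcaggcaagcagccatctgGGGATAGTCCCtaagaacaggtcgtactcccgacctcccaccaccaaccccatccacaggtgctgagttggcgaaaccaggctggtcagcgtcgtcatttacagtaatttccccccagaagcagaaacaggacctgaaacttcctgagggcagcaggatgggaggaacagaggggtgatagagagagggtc
C3, chr17:57228137-57228386, minus strand: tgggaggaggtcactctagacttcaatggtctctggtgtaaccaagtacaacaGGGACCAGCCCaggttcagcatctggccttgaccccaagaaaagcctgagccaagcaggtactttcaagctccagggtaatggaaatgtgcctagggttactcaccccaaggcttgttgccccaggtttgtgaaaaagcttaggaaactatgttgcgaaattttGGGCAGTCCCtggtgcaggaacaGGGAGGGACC
C1s1, chr6:124542360-124542609, minus strand: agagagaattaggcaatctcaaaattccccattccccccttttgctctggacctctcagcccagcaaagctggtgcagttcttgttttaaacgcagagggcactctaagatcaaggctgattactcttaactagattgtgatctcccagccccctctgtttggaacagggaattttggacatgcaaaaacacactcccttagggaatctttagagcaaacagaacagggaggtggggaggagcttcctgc

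All matches in these windows were to the NF-kappaB core, whose matches on opposite strands can overlap. C3 held 5 matches, beginning 197, 196, 33, 33 and 10 bases before the start. Those at 33 are the same bases read on both strands, and those at 197 and 196 overlap. C1qb held 2 overlapping matches, 191 and 190 bases before the start, and C1s1 held none of the 5 patterns before the start shown and 1 NF-kappaB core match, 35 bases upstream, before its second start. C1ra, whose window is not shown, held none. In C1qc, whose window is not shown, 3 NF-kappaB core matches in 1 shared stretch began 41, 40 and 40 bases before the start and 1 PU.1 core match 195 bases before it. The RefSeq starts of C1qc and C1ra and the second start of C1s1 lie inside the gene spans given above. The NF-kappaB core matches of C1qc and C1s1 thus fall within those spans. The pattern is loose, since 45.8% of 32851 upstream windows of the same length hold an NF-kappaB core match. The PU.1 core was found in 2.44%, the interferon response core in 2.98%, the STAT core in 7.02% and the C/EBP core in 5.02%. A match describes these letters and does not show binding.

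Within each library, the balance between C1q and the other components differed between the groups. The mean of C1qa, C1qb and C1qc was 162 CPM ± 19.9 in Ki-67-KO and 456 CPM ± 32.6 in wild-type tumors (SD, n = 3 each). C3 stood at 3.70, 4.01 and 3.39 times that mean in Ki-67-KO libraries and at 0.118, 0.155 and 0.130 times that mean in wild-type libraries. C3 counts thus exceeded the C1q mean in every Ki-67-KO library and fell short of it in every wild-type library. These counts are not divided by length, and C3 has 5143 exon bases against 1040 to 1931 for the C1q genes. The crossing depends on that length. Divided by exon length, C3 was below the mean of the C1q genes in every library of both groups. Per kilobase of exon, C3 was at 103, 142 and 105 CPM in Ki-67-KO libraries. That was below C1qa, at 202, 212 and 185 CPM, and above C1qc, at 58.0, 81.8 and 70.0 CPM. C1qb, at 98.4, 156 and 139 CPM, was below C3 in replicate 1 only. The ratio to the C1q mean was 0.457, 0.950 and 0.430 for C4b in Ki-67-KO libraries and 0.0712, 0.0744 and 0.0946 in wild-type libraries. For C1s1 it was 0.131, 0.289 and 0.158 in Ki-67-KO libraries and 0.0154, 0.020 and 0.0161 in wild-type libraries. For C1ra it was 0.143, 0.246 and 0.143 in Ki-67-KO libraries and 0.0319, 0.0389 and 0.0323 in wild-type libraries. No library of either group fell within the range of the other for these 4 ratios, which were given no test because they combine members chosen with results known.

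**Figure D2:**
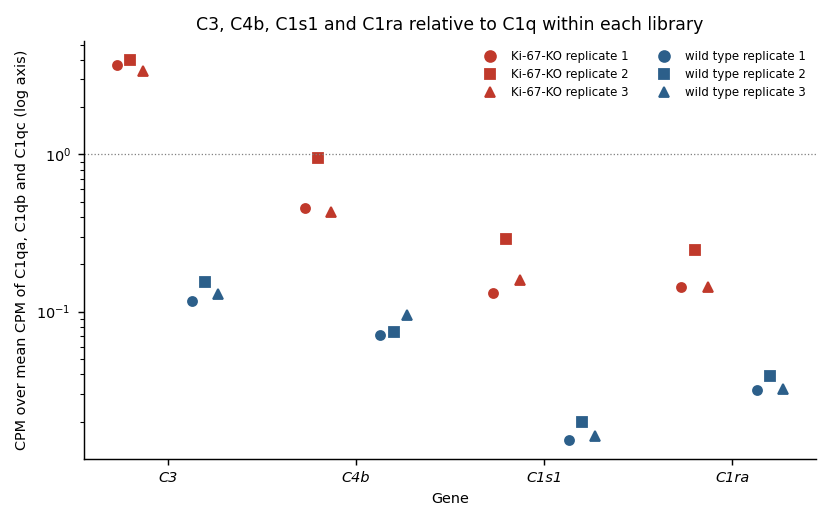
Ratio of the CPM of C3, C4b, C1s1 and C1ra to the mean CPM of C1qa, C1qb and C1qc within each library, on a log axis, with Ki-67-KO libraries left and wild-type libraries right of each gene. The dotted line marks equal counts, which are not divided by exon length. Divided by exon length, C3 is below the mean of the C1q genes in every library. C3 lies above the line in the Ki-67-KO libraries, at 3.39 to 4.01, and below it in the wild-type libraries, at 0.118 to 0.155.

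The proteases C1r and C1s act together in the C1 complex, yet their transcripts differed unequally. C1ra counts were 1.09, 0.852 and 0.905 times those of C1s1 in Ki-67-KO libraries and 2.08, 1.95 and 2.01 times those of C1s1 in wild-type libraries. The ratio averaged 0.950 ± 0.127 in Ki-67-KO and 2.01 ± 0.063 in wild-type tumors (SD, n = 3 each), a description with no test.

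Levels of different members were compared per length, as RPKM (CPM per kilobase of annotated exon). In Ki-67-KO tumors the order was C1qa at 199 RPKM ± 13.7, C1qb at 131 ± 29.5, C3 at 117 ± 22.1, C1qc at 69.9 ± 11.9, C4b at 18.0 ± 10.8, C1s1 at 10.3 ± 5.76 and C1ra at 9.87 ± 4.51 (SD, n = 3). C1qb and C3 overlapped there between libraries, as did C4b, C1s1 and C1ra. Within each Ki-67-KO library, C4b was above both C1s1 and C1ra. In wild-type tumors it was C1qa at 596 RPKM ± 41.8, C1qb at 329 ± 34.7, C1qc at 202 ± 8.92, C3 at 11.8 ± 0.896, C4b at 6.43 ± 1.29, C1ra at 5.23 ± 0.202 and C1s1 at 2.48 ± 0.172 (SD, n = 3). The C4b and C1ra levels of wild-type libraries nearly touched, at 5.46 RPKM in the lowest C4b library and 5.45 RPKM in the highest C1ra library. Those of C4b, C1ra and C1s1 may be too low, because pairs that fit a copy equally well are not counted.

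Among 9624 protein-coding genes with a mean of at least 10 CPM, Gsdmd, encoding the pore-forming gasdermin D, had the profile over the 6 libraries most like that of C1qa. The root mean square difference of the centred log2 CPM profiles was 0.028. Gprc5b, Manba, 2510009E07Rik and Zeb2 followed at 0.0797 to 0.0862. The profile most like that of C3 was that of Prom2, a membrane protein gene of epithelia, at 0.0385. Epn3, the epithelial splicing regulator Esrp2, the keratin gene Krt7 and the motor protein gene Myo5b followed at 0.109 to 0.148. The genes near C1qa had log2 fold changes of -1.57 to -1.45 and those near C3 of 3.15 to 3.34, in a comparison that 7158 genes passed. For Cfb no likeness is given, since its profile rests on at most 7 counts.

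The other complement components were taken from a list of 22 genes, of which 14 were tested, with 5 higher, 5 lower and 4 that did not pass. Over all genes tested, 17.6% were higher and 18.4% lower. Among those lower were genes of the lectin pathway, in which ficolins and collectins bind sugars in place of C1q. Fcna, ficolin A, which is made by macrophages, was at 3.12, 4.66 and 2.62 CPM in Ki-67-KO libraries and at 34.1, 35.9 and 30.6 CPM in wild-type libraries (log2 fold change -3.27, SE 0.20, edgeR adjusted p = 1.25e-05). Masp1, a serine protease of that pathway, was at 12.9, 13.1 and 15.2 CPM in Ki-67-KO libraries and at 62.2, 72.7 and 72.7 CPM in wild-type libraries (log2 fold change -2.34, SE 0.11, edgeR adjusted p = 3.97e-06). The groups were apart for both genes. Cfp, properdin, which stabilises the alternative pathway enzyme and is made by myeloid cells, was at 32.9, 57.8 and 39.6 CPM in Ki-67-KO libraries and at 96.9, 89.8 and 87.8 CPM in wild-type libraries (log2 fold change -1.08, edgeR adjusted p = 0.00272). Colec12, a membrane collectin, fell by 0.61 on the log2 scale, and C1rl, a C1r-like protease, fell by 0.99. The call of C1rl was lost when Ki-67-KO replicate 3 or wild-type replicate 1 or 2 was left out (edgeR adjusted p = 0.0531 to 0.0777).

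Cfd, factor D or adipsin, the adipocyte-made protease that cleaves factor B, was at 130, 388 and 166 CPM in Ki-67-KO libraries and at 43.2, 33.8 and 30.9 CPM in wild-type libraries. The groups did not overlap and replicate 2 was the highest Ki-67-KO library, as it was for the summed adipocyte markers (log2 fold change 2.66, SE 0.38, edgeR adjusted p = 0.00109, and 1.99 without that library). The terminal components Hc, encoding C5, and C6 passed at low levels, with Hc at 1.36 CPM ± 0.767 in Ki-67-KO and 0.486 CPM ± 0.129 in wild-type tumors, and C6 at 2.82 CPM ± 1.58 in Ki-67-KO and 1.17 CPM ± 0.439 in wild-type tumors (SD, n = 3 each; edgeR adjusted p = 0.0392 and 0.048). Both calls were lost when any library other than Ki-67-KO replicate 1 was left out, with log2 fold changes of 0.89 and 0.66 without Ki-67-KO replicate 2, against 1.47 and 1.26 with all libraries (edgeR adjusted p = 0.0775 to 0.144 for Hc and 0.0549 to 0.172 for C6). Across this list the higher count ranged from 2 to 7 over the alternatives run. Masp2, C8g and C9 did not pass, with levels of 0.237 to 1.63 CPM in Ki-67-KO and 0.221 to 1.44 CPM in wild-type libraries, and the other 8 genes of the list were not tested.

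Of 18 regulator genes, 13 were tested and 8 were higher, beside 17.6% of all genes tested. Clu, clusterin, an inhibitor of the terminal complex, was at 1395 CPM ± 125 in Ki-67-KO and 513.5 CPM ± 14.9 in wild-type tumors (SD, n = 3 each; log2 fold change 1.44, SE 0.10, edgeR adjusted p = 2.43e-05). Serping1, the C1 inhibitor that inactivates C1r and C1s, was at 85.3, 170 and 99.0 CPM in Ki-67-KO libraries and at 25.9, 26.4 and 31.6 CPM in wild-type libraries. It was higher with no overlap, like its target proteases (log2 fold change 2.08, SE 0.24, edgeR adjusted p = 0.00036). Cd59a, a membrane inhibitor of the terminal complex, rose 1.91-fold (edgeR adjusted p = 0.00349). Cfi, the protease factor I, averaged 0.971 CPM ± 0.393 in Ki-67-KO and 0.152 CPM ± 0.0749 in wild-type tumors (SD, n = 3 each; edgeR adjusted p = 0.00479).

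Susd4 rose by 1.85 on the log2 scale. Cpn1, a chain of the carboxypeptidase that inactivates C3a and C5a, passed at 0.653 CPM ± 0.196 in Ki-67-KO and 0.0815 CPM ± 0.049 in wild-type tumors (SD, n = 3 each; edgeR adjusted p = 0.00392), which rests on 2 to 5 counts per wild-type library. Vtn and Csmd1 passed at log2 fold changes of 2.11 and 1.58. The call of Vtn was lost without wild-type replicate 1 or 3, and that of Csmd1 without Ki-67-KO replicate 3 or wild-type replicate 1 or 3 (edgeR adjusted p = 0.0701 to 0.101). Under the stricter filter on low counts, 4 regulators were higher, namely Clu, Serping1, Cd59a and Susd4. Cfi, Cpn1, Vtn and Csmd1 fell short of that filter, 1 CPM in every library of a group, and were not tested there. Cr1l, the rodent membrane regulator Crry, fell by 0.38 on the log2 scale (edgeR adjusted p = 0.0076). Cd55, Cd46 and Cpn2 did not pass.

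Of 9 receptor genes, 8 were tested, with 2 higher and 6 lower, beside 17.6% higher and 18.4% lower over all genes tested. C3ar1, the receptor of the C3a fragment, was at 19.3, 22.8 and 24.4 CPM in Ki-67-KO libraries and at 75.9, 66.8 and 87.6 CPM in wild-type libraries, without overlap (log2 fold change -1.79, SE 0.13, edgeR adjusted p = 3.25e-05). It was lower while its ligand's gene C3 was higher. C5ar1, a receptor of C5a, fell by 1.16 on the log2 scale (edgeR adjusted p = 0.000511), while C5ar2, its second receptor, rose by 0.93 (edgeR adjusted p = 0.00617). Of the integrin chains that form complement receptors 3 and 4, Itgam fell by 2.40, Itgb2 fell by 1.53 and Itgax rose by 0.75 on the log2 scale. Exons of other genes cover 68.7% of the exon bases of Itgam, and the call of Itgax was lost without wild-type replicate 1 (edgeR adjusted p = 0.0592). Vsig4, a macrophage receptor of C3b, fell by 1.70 and Cd93 by 1.05.

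Among 7 cytokine genes whose products are known to induce complement genes in other cells, 6 were tested, 4 were higher and none was lower. Over all genes tested, 17.6% were higher and 18.4% lower. Il1a, interleukin-1 alpha, averaged 85.8 CPM ± 1.24 in Ki-67-KO and 5.06 CPM ± 1.03 in wild-type tumors (SD, n = 3 each; edgeR adjusted p = 8.08e-07). Il1b was at 171, 142 and 164 CPM in Ki-67-KO libraries and at 84.6, 103 and 67.6 CPM in wild-type libraries (log2 fold change 0.90, edgeR adjusted p = 0.00254). Lif rose by 0.93 and Tnf by 0.80 on the log2 scale, and the call of Tnf was lost in 3 of 6 fits that left out 1 library (edgeR adjusted p = 0.0882 to 0.134). Il6, at 1.69 CPM ± 0.566 in Ki-67-KO and 1.39 CPM ± 0.204 in wild-type tumors (SD, n = 3 each), did not pass (edgeR adjusted p = 0.502), nor did Osm (edgeR adjusted p = 0.693). Ifng was too low to be tested, with at most 0.214 CPM in any library. Whether these cytokines had a part in the changes of the complement genes was not tested.

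Markers of the cell types that can make complement moved as well. Over all genes tested, 17.6% were higher and 18.4% lower. Of 16 macrophage markers, 15 were lower and none higher, Cd163 being the one that did not pass, with a median log2 fold change of -1.53 and a summed level of 832 to 978 CPM in Ki-67-KO and 5021 to 5875 CPM in wild-type libraries. Lyz2 made up most of the wild-type sum, at 3193 to 3937 CPM there and 300 to 331 CPM in Ki-67-KO libraries. Its log2 fold change was -3.46, so the sum fell more than the median marker did. Of 10 epithelial markers, 9 were higher, with a sum of 6163 to 6598 CPM in Ki-67-KO and 2944 to 3047 CPM in wild-type libraries. Fibroblast markers were higher for 11 of 12 and lower for Pdgfra, with a sum of 7807 to 13322 CPM in Ki-67-KO and 4122 to 5126 CPM in wild-type libraries. Adipocyte and keratinocyte markers were higher for 8 of 8 each, and the calls of the keratinocyte markers Krt5 and Lor were lost without wild-type replicate 1 or 3 (edgeR adjusted p = 0.057 to 0.0713). Their sums were 216 to 554 CPM in Ki-67-KO and 66.7 to 103 CPM in wild-type libraries for adipocytes, and 732 to 1626 CPM in Ki-67-KO and 74.0 to 130 CPM in wild-type libraries for keratinocytes. Krt14 made up most of the keratinocyte sum in Ki-67-KO libraries, at 630 to 1009 CPM. That sum does not show which cells expressed these genes. In whole tumors, fewer cells of a type and less RNA per cell cannot be told apart. The part of these markers in the changes of the complement genes was not tested.

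Other cell types were checked in the same way. Of 8 endothelial markers 1, Emcn, was higher, a call lost in 4 of 6 fits that left out 1 library (edgeR adjusted p = 0.076 to 0.193), with sums of 218 to 301 CPM in Ki-67-KO and 227 to 307 CPM in wild-type libraries. Of 9 neutrophil markers 4 were higher, with sums of 326 to 447 CPM in Ki-67-KO and 235 to 282 CPM in wild-type libraries. The call of the neutrophil marker S100a9 was lost in 3 of those 6 fits. Of 7 dendritic cell markers 3 were higher and 1 lower, with sums of 20.5 to 22.6 CPM in Ki-67-KO and 16.1 to 16.6 CPM in wild-type libraries. Each of these 4 dendritic cell calls was lost in some of the 6 fits, Batf3 and Zbtb46 in 3 and Cd209a and Ccr7 in 4 (edgeR adjusted p = 0.0504 to 0.156). Of 8 skeletal muscle markers 7 were higher, with sums of 96.0 to 127 CPM in Ki-67-KO and 62.0 to 75.9 CPM in wild-type libraries, and the call of Myh4 was lost in 4 of the 6 fits. The defining hepatocyte markers, Alb among them, were near 0 and none was tested, with a sum of 1.08 to 1.90 CPM in Ki-67-KO and 0.508 to 0.794 CPM in wild-type libraries.

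**Figure D3:**
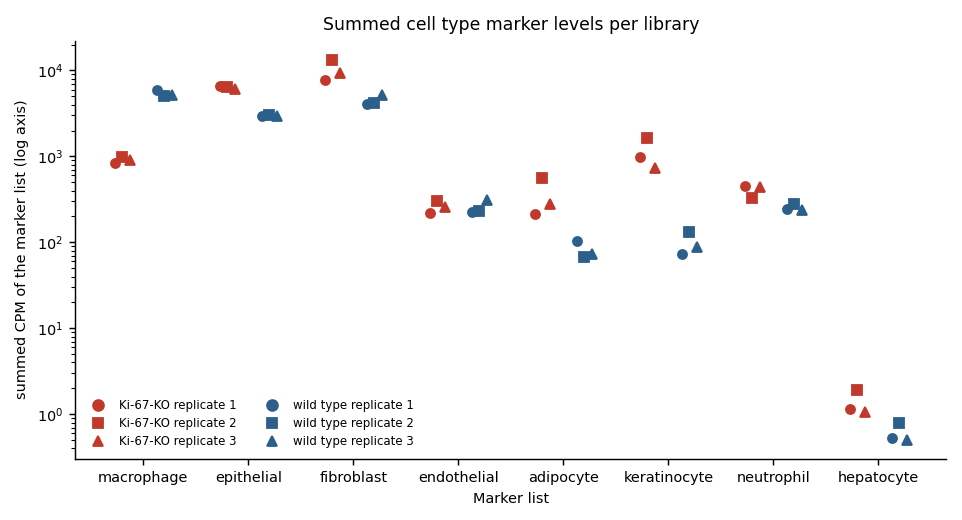
Summed CPM of each cell type marker list per library, on a log axis, with Ki-67-KO libraries left and wild-type libraries right of each list. Macrophage markers are at 832 to 978 CPM in Ki-67-KO and 5021 to 5875 CPM in wild-type libraries, epithelial and fibroblast markers are higher in every Ki-67-KO library, and hepatocyte markers stay below 2 CPM. Lyz2 makes up most of the wild-type macrophage sum, at 3193 to 3937 CPM.

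Set beside each of the 16 macrophage markers, C1qa stood in a ratio whose libraries overlapped between the groups for 8, lay higher in every Ki-67-KO library for 5 and lower in every Ki-67-KO library for 3. The mean ratio in Ki-67-KO tumors was up to 3.68 times that in wild-type tumors, with a median of 0.967 times over the 16 markers. C1qa stood at 10.1 to 14.0 times the counts of Adgre1 in Ki-67-KO libraries and at 8.99 to 11.7 times in wild-type libraries, with overlap. For Lyz2, lysozyme, the ratio was 0.599 to 0.735 in Ki-67-KO and 0.163 to 0.194 in wild-type libraries, and for the scavenger receptor gene Msr1 it was 4.11 to 7.22 in Ki-67-KO and 1.88 to 2.02 in wild-type libraries.

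The ratio of C3 to the 10 epithelial markers lay higher in every Ki-67-KO library for 6, lower for Krt19, and overlapped between the groups for Epcam, Krt7 and Cldn4. Its mean in Ki-67-KO tumors was 0.246 to 8.88 times that in wild-type tumors, with a median of 2.07. For Epcam the ratio was 0.560 to 0.837 in Ki-67-KO and 0.455 to 0.614 in wild-type libraries, whereas for Krt8 it was 0.286 to 0.484 in Ki-67-KO and 0.0383 to 0.0440 in wild-type libraries. The ratio of C3 to the 12 fibroblast markers was higher in every Ki-67-KO library for all 12, by 3.74 to 15.7 times with a median of 4.74.

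The other components were set beside the 12 fibroblast markers in the same way. For C1ra the ratio overlapped between the groups for 9 markers, lay higher in Ki-67-KO for Pdgfra and lower for Col1a1 and Pdgfrb, with a median of 0.867 times the wild-type ratio. For C4b it overlapped for 9 and lay higher for 3, with a median of 1.27 times. For C1s1 it lay higher for 10 and overlapped for 2, with a median of 1.87 times. These ratios are descriptions with no test, chosen after values were seen, and do not show which cells expressed a gene.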

How the data were processed

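Counts as deposited are whole numbers per gene, in an unstranded and 2 stranded columns; FastQC, STAR 2.6.0c, DESeq2 and GRCm38 are named in the submitters' processing notes, and the annotation release is not given in the sources used here. The unstranded column was used, since the first stranded column held 50.1% to 50.2% of stranded counts. Rows that name no gene stayed out of library sizes and tests, and pairs outside exons were 9.24% to 18.9% and ambiguous pairs 4.98% to 6.23% of unique pairs. Of 54146 gene rows, 54079 were matched by identifier to GENCODE M21 (GRCm38) for symbols, coordinates, exon lengths and overlaps.

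The test was edgeR 4.0.16, run in R 4.3.3 (filterByExpr, TMM, glmQLFit, glmQLFTest, no robust fit), with Benjamini-Hochberg adjustment over 19900 genes and a threshold of 0.05. SE is the absolute log2 fold change over the square root of F. A count of 0 allows 3 counts, or 0.0781 to 0.136 CPM, which covers counting error only. On simulated data for the Ki-67-KO against wild-type comparison (19539 genes), 77 of 102 2-fold and 95 of 97 4-fold changes were recovered. Of 177 calls in that simulation, 5 were false.

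The members, lists and tests were chosen with earlier results of these data known. Named genes are all members, Mki67, the 6 smallest p in each list, all called complement genes and the 5 nearest profiles of C1qa, C3 and Cfb, not all of which are printed. Gm20547, Gm16567, Zbtb12, listed genes that did not pass, and the genes of the ratios to markers were named after values were seen. Same-numbered libraries did not deviate together. Alternatives were DESeq2 1.42.0, RLE factors, library totals, other filters, a stranded column, a robust fit, removal of abundant genes, covariates, the replicate block, each library left out, and, chosen after seeing the data, only libraries under 40% unmapped pairs. The results of 1 regulator gene and 1 marker gene are not reported here.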

Additional observations from a re-analysis of the deposited data

How the results depend on the processing

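The direction of all 8 tested members held under all 18 alternatives, and C1qa, C1qb, C1qc, C1s1, C2 and C3 also stayed past the threshold in each. With the share of unmapped pairs as a covariate, 2333 genes and 3 members were higher, and C1ra and C4b no longer passed, at log2 fold changes of 0.42 and 0.88; the cause was not tested. With a covariate for pairs outside exons, 2238 genes were lower. With each library left out in turn, genes higher numbered 1821 to 4648 and genes lower 2257 to 4778, members higher numbered 3 to 5, and the log2 fold change was 0.43 to 1.12 for C1ra and 0.83 to 1.72 for C4b. With only the libraries under 40% unmapped pairs, which leaves 1 Ki-67-KO library assumed to vary like the wild-type ones, 5 members were higher and 3 lower, and C1ra and C4b were at 0.33 and 0.77. In the first stranded column C2 was at 0.52. Under the replicate block 3082 genes were higher and 3580 lower, and 5 members higher and 3 lower; same-numbered libraries correlated at 0.053, -0.21 and -0.24 in their deviations from the group means, so the numbers do not pair them. Over the 102 other named genes, 1703 of 1825 values kept their direction and side of the threshold, 108 lost the call, 14 gained one and 0 reversed. Depth limits the genes under about 1 CPM, where a few counts decide.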
